A study of Mus musculus with 6 samples.

Results

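The cell cycle genes described here are 38 genes, chosen by symbol from a list and all found among the 32285 genes counted in each library. Of these, 14 act mainly in S phase, 19 act mainly in mitosis or on the way into it, and 5 are high in dividing cells without belonging to a single phase. Transcripts of single cells were counted in bone marrow, spleen and tumor of mice that bore EMT6 tumors, a mouse mammary carcinoma line grown in BALB/c hosts. The tested mice carried the label Cysltr1 KO and are described as deficient in Cysltr1, the gene of a receptor for cysteinyl leukotrienes, and the controls were BALB/c mice labelled WT. Both genotypes bore the tumor, so no tumor-free mouse enters any comparison. Each tissue gave 1 KO and 1 WT library, and each library came from a pool of 3 mice, so 6 libraries were read in all. Marrow was enriched for progenitor cells, and spleen and tumor for cells that carry CD45, both with magnetic kits. The age of the mice and the exons that the Cysltr1 allele lacks are not given in the sources used here.

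A dividing cell copies its DNA in S phase and parts the copies in mitosis. Before and during S phase, E2F factors drive genes for the helicase that opens DNA, for the clamp that holds the polymerase and for enzymes that make nucleotides. Genes for cyclins, kinases and spindle proteins, among those that a complex called DREAM represses, peak later, from G2 to mitosis. In marrow, erythroid precursors and progenitors of granulocytes and monocytes divide often, immature neutrophils lose the ability to divide as they mature, and mature neutrophils do not divide. Most resting T and B cells of spleen are outside the cycle.

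The S-phase members were Mcm2 to Mcm7, the subunits of the replicative helicase, and Cdc6 and Gins2, which load and activate it. They also comprised Pcna, the sliding clamp, and the nucleotide enzymes Tyms, Rrm1, Rrm2, Tk1 and Dut. Among the mitotic members, Cdk1 is the kinase that starts mitosis and Ccna2, Ccnb1 and Ccnb2 are its cyclins. Plk1, Aurka and Aurkb are other mitotic kinases, and Birc5 works in a complex with Aurkb. Cdc20 and Ube2c help to mark the B cyclins for destruction, and Bub1b is a checkpoint protein that restrains Cdc20. Cenpa, Cenpe and Cenpf act at the centromere, Tpx2, Prc1 and Nusap1 on spindle microtubules, Top2a untangles DNA, and Mki67 encodes the proliferation antigen Ki-67 that coats mitotic chromosomes. The remaining 5 were Hmgb2 and H2afz, which are chromatin proteins, Tubb5 and Tuba1b, which are tubulins, and Stmn1, which destabilizes microtubules.

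Promoters of 5 members are shown because matches to E2F letters and to CHR letters fell mostly in different lists, S-phase and mitotic respectively. Each line holds the 250 bases before the gene's start, 5′ to 3′ on the gene's own strand, from RefSeq on GRCm38.p6. Capitals mark matches to the E2F letters in Mcm5 and Mcm6, to both the E2F and the CHR letters in Cdk1, and to the CHR letters in Top2a and Cdc20. CHR is the cell cycle homology region, which DREAM binds.
Mcm5 (chr8:75109259-75109508, plus strand): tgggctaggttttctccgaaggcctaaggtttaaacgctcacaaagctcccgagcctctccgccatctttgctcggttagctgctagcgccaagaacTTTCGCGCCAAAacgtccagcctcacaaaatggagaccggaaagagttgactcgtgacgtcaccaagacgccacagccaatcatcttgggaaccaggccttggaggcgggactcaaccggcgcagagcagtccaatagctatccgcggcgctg
Mcm6 (chr1:128359706-128359955, minus strand): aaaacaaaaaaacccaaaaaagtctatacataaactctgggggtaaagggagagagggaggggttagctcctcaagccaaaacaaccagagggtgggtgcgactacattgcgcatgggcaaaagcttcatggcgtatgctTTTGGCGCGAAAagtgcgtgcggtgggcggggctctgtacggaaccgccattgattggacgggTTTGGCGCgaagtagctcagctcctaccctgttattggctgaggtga
Top2a (chr11:99024190-99024439, minus strand): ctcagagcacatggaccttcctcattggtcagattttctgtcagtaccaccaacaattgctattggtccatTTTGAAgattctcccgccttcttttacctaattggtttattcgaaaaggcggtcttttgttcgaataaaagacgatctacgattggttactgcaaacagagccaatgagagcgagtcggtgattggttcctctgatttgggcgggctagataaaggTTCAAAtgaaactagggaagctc
Cdk1 (chr10:69352913-69353162, minus strand): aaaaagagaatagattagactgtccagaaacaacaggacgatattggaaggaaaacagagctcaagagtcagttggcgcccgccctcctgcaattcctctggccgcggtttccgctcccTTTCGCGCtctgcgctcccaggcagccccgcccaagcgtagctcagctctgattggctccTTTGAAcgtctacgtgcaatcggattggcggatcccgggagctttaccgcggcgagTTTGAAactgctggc
Cdc20 (chr4:118437344-118437593, minus strand): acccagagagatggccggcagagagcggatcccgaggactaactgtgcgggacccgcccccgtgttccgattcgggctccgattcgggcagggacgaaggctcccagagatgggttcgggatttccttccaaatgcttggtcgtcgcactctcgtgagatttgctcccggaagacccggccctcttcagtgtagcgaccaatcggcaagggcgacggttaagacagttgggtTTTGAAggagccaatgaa

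Promoters were at hand for 32 of the 38 members, and were searched on both strands over 250 bases before and 50 bases after the start. Those of Mcm4, Gins2, Ccna2, Tpx2, Aurkb and Stmn1 were not used here. The CHR letters (TTTGAA, or TTCAAA on the other strand) stood in 12 of 16 mitotic promoters, which is 75%, and in 1 of 12 S-phase promoters, that of Mcm2. Over all 27025 promoters the share with these letters was 18.1%. Mitotic promoters without them were those of Ccnb1, Birc5, Cenpe and Nusap1. E2F letters (TTTCCCGC, TTTCGCGC, TTTGCCGC or TTTGGCGC, or their reverse complements) stood in 5 of 12 S-phase promoters, those of Mcm3, Mcm5, Mcm6, Mcm7 and Cdc6. Among mitotic promoters Cdk1 alone had them, 1 of 16, against 2.32% of all promoters. The CCAAT letters (CCAAT or ATTGG) were in 14 of 16 mitotic and 8 of 12 S-phase promoters, against 37.9% of all. Matches of the E2F letters overlapped each other in Mcm5 and Mcm6, and in Mcm7 a match shared a base with a CCAAT match. A match describes letters only, and binding was not measured.

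The libraries held 6638 KO-labelled and 5852 WT-labelled barcodes in marrow. Spleen had 8407 and 9130 barcodes and tumor 6874 and 9740, with 40377940 to 75873784 UMIs each. A UMI (unique molecular identifier) stands for 1 captured transcript. Cells kept after filters had a median of 6294 UMIs in the KO-labelled marrow library and 12701 in the WT-labelled one. The medians were 3642 and 2914 in spleen, and 2325 and 3287 in tumor, again with KO first. Libraries shared 46 to 128 cell barcodes, at most 1.43% of the smaller library. Cysltr1, the targeted gene, went against the labels in 2 tissues. It had 24.5 CPM (UMIs scaled to the same total in each library or gate) in the KO-labelled marrow library, against 4.71 CPM in the WT-labelled one, and 33.1 against 6.66 CPM in spleen, while tumor had 7.27 against 9.95 CPM. UMIs from outside the deleted part would check nothing, so genotypes are given here as the libraries' labels, and every direction given is one between labels. With 1 library per group no difference has a replicate check, no test was run, and all 95% intervals cover counting error only. Because UMIs of 1 cell are not independent, intervals on UMIs are narrower than intervals over cells.

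Cells were sorted into gates by marker genes outside the 38, and each gate is named after its marker list. Every cell with at least 2000 UMIs was drawn down to 2000, and entered a gate when it showed at least 3 markers of 1 list and a larger share of that list than of any other. A cell was called in S phase, or mitotic, when at least 3 S-phase members or at least 3 mitotic members were detected in the same draw. The calls state which transcripts were detected and do not place a cell in a phase. In the erythroid gate, for example, 70.3% of cells in each library had both calls. The draw removes depth from the call but not from the choice of cells, since 12.9% of KO-labelled and 9.18% of WT-labelled marrow cells had under 2000 UMIs. The shares under 2000 UMIs were 12.5% and 23.6% in spleen, and 46.1% and 40.3% in tumor. Levels in CPM used all UMIs of the gated cells.

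Free RNA can give a cell UMIs of genes that it does not express. The mature neutrophil gate, whose cells do not divide, therefore serves as the background in marrow and spleen. In marrow 3 of 604 KO-labelled mature neutrophils, 0.497%, were called in S phase, against 1 of 204 WT-labelled ones, 0.490%. Mitotic calls were 0.662% and 1.47%, from 4 and 3 cells with a gate median of 2866 and 4410.5 UMIs before the draw. In the spleen gate 0.128% of 782 KO-labelled and 0.332% of 1508 WT-labelled cells had either call. Shares far above these were found in every marrow gate of immature cells. In tumor the same gate gave no low background. Its S-phase calls covered 4.14% of 314 KO-labelled and 3.09% of 291 WT-labelled cells, and its mitotic calls 9.87% and 12.4%.

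**Figure D1:**
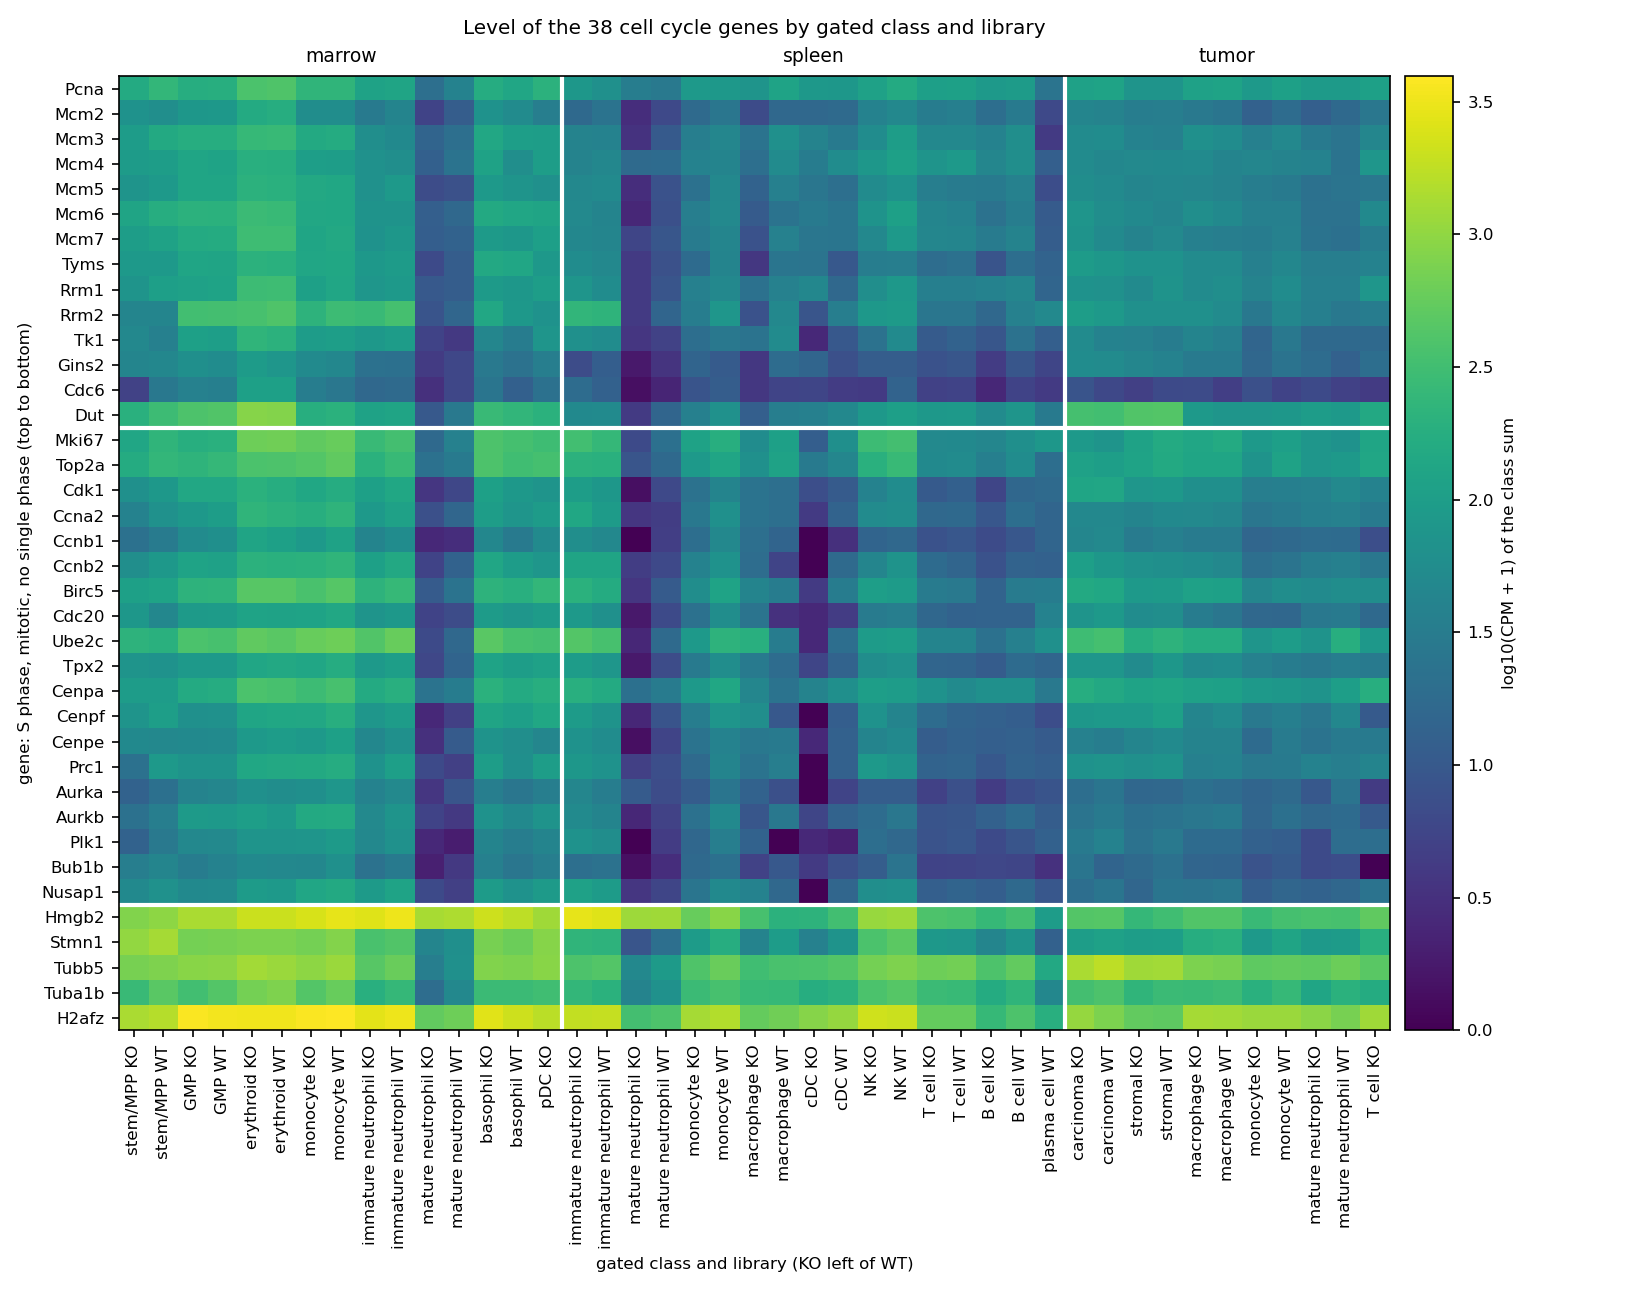
Level of each of the 38 genes in 43 gate and library pairs with at least 50 cells, as log10 of CPM plus 1 (colour), with KO-labelled left of WT-labelled in each gate (MPP, multipotent progenitor; GMP, granulocyte-monocyte progenitor; pDC and cDC, plasmacytoid and conventional dendritic cell; NK, natural killer cell). Rows run through the S-phase, mitotic and remaining members, and the erythroid and monocyte gates of marrow are the highest columns for S-phase and mitotic members.

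Of the 38 members, all but Tubb5 were highest in a marrow gate. All 14 S-phase members were highest in the erythroid gate (239 KO-labelled and 118 WT-labelled cells), and in each case both libraries of that gate led. Dut, which keeps uracil out of DNA, had 867 CPM in KO-labelled and 841 CPM in WT-labelled erythroid cells. Pcna followed with 372 and 401 CPM, and Rrm2, a subunit of ribonucleotide reductase, with 350 and 401 CPM. The lowest S-phase members there were Gins2 with 91.6 and 76.1 CPM, Cdc6 with 109 and 110 CPM, and Mcm2 with 155 and 173 CPM. Each UMI stands for a transcript end, and genes differ in how well that end is captured, so the order of genes describes UMIs and was not scaled by length.

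Mitotic members divided between 2 gates: 6 of 19 were highest in the erythroid gate and 13 in the marrow monocyte gate. Both libraries of the gate led for only 3 of these 6 and 7 of these 13. Mki67 had 638.5 CPM in KO-labelled and 644 CPM in WT-labelled erythroid cells, followed by Ube2c with 518 and 473 CPM and Birc5 with 457 and 460 CPM. In the monocyte gate Ube2c had 571 and 641 CPM, Mki67 528 and 573 CPM, and Top2a 434 and 521 CPM. The lowest mitotic members were the same 3 genes in both gates. Bub1b had 45.6 CPM in KO-labelled and 63.6 CPM in WT-labelled monocytes, Aurka 61.3 and 76.5 CPM, and Plk1 74.1 and 90.3 CPM.

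The 5 remaining members peaked in 5 different gates. H2afz, a variant histone, reached 3742 CPM in KO-labelled and 3940 CPM in WT-labelled marrow monocytes. Hmgb2 reached 2619 and 3174 CPM in marrow immature neutrophils, and Stmn1 1030 and 1304 CPM in the gate of stem and multipotent progenitors. For Hmgb2 the second-highest level, 2924 CPM, was in KO-labelled spleen immature neutrophils, so only the WT-labelled library of the marrow gate led. Tubb5 was highest in the carcinoma gate, with 1395 and 1740 CPM, and Tuba1b in the erythroid gate, with 707 and 784 CPM. Their medians over the 43 gate and library pairs ran from 126 CPM for Stmn1 to 1195 CPM for H2afz, the S-phase medians from 5.35 CPM for Cdc6 to 109 CPM for Pcna, and the mitotic medians from 14.1 CPM for Bub1b to 175 CPM for Ube2c. The median of Stmn1 was thus under those of Ube2c, Mki67 (129 CPM) and Top2a (128 CPM).

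At the low end stood the KO-labelled mature neutrophil gate of spleen, where 22 of the 38 members had their lowest level. Cdk1 was at 0.387 CPM there, from 1 UMI. Listed at 0 in the 64 KO-labelled conventional dendritic cells of spleen were 6 mitotic members, namely Ccnb1, Ccnb2, Cenpf, Prc1, Aurka and Nusap1. With so few cells a count of 0 limits the level only loosely.

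Across the 43 pairs, the non-member genes whose levels ran most like the S-phase members were Tipin, Uhrf1, Clspn, Prim1 and Dnmt1. Their Pearson r with the mean of the list was 0.97 for Tipin and 0.96 for the others. Nearest to the mitotic members were Cdca8 (r 0.99), Cdca3 (0.98), Kif22, Ckap2l and Hmmr (0.97 each). These values describe 11093 ranked genes over points that share libraries, depth and cell mix.

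The 2 phases were not in the same proportion in all gates. Summed mitotic CPM over summed S-phase CPM was near 1 in the erythroid gate (1.06 KO-labelled, 1.02 WT-labelled) and in the granulocyte-monocyte progenitor gate (0.980 and 1.0). It was 2.20 and 2.40 in marrow monocytes, 1.94 and 2.23 in marrow immature neutrophils, and 3.06 and 2.71 in spleen immature neutrophils. T and B cells of spleen lay on the other side, with 0.702 and 0.658 in T cells and 0.749 and 0.747 in B cells, whereas natural killer cells of spleen had 1.78 and 1.38. In tumor the ratio was 1.36 and 1.5 in the carcinoma gate and 1.59 and 1.75 in macrophages. Within each of these gates both ratios thus lay on the same side of 1, except in the progenitor gate. There the KO-labelled interval, 0.967 to 0.993, was under 1 and the WT-labelled one, 0.992 to 1.01, included it. The WT-labelled interval of the erythroid gate, 0.998 to 1.05, also included 1. Other gates of spleen were less alike between the libraries. The ratios lay on opposite sides of 1 in macrophages (3.24 KO-labelled, 0.917 WT-labelled) and in mature neutrophils (0.859 and 1.21). In each of these gates the interval of the ratio below 1 included 1. Conventional dendritic cells of spleen had 0.288 and 0.944.

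**Figure D2:**
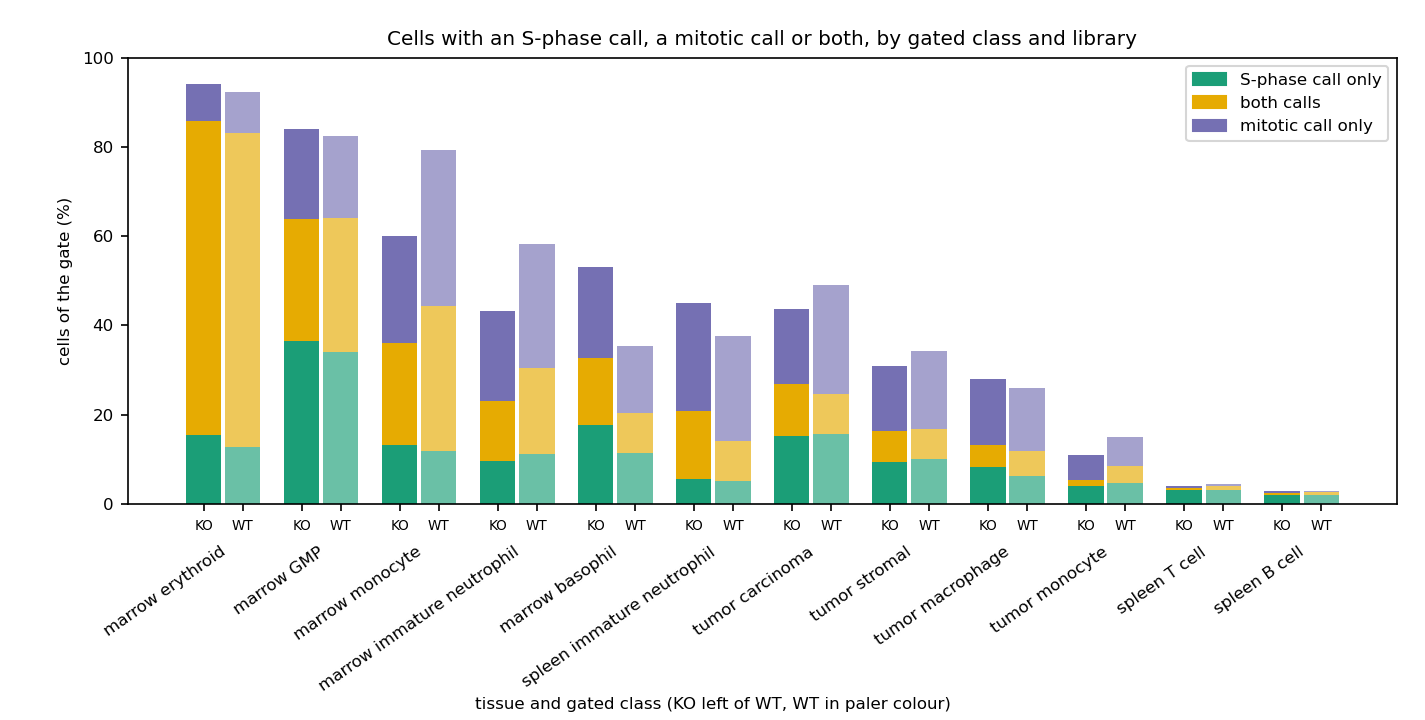
Percent of cells of each gate called in S phase only, in both phases, or mitotic only, stacked, with KO-labelled bars left of the paler WT-labelled bars. Cells with both calls are the largest part in the erythroid gate, at 70.3% in each library, and a small part in the spleen T and B cell gates.

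Calls per cell were also compared between the phases. In the erythroid gate 70.3% of cells in each library had both calls. Progenitors of granulocytes and monocytes had 36.5% KO-labelled and 34.1% WT-labelled cells with the S-phase call only, 27.3% and 30.1% with both, and 20.3% and 18.2% with the mitotic call only. Marrow monocytes had more cells with the mitotic call only, 24.0% and 35%, than with the S-phase call only, 13.2% and 11.9%. In spleen T cells the S-phase call alone took 3.11% and 3.21% of cells.

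Progenitors of granulocytes and monocytes, the largest marrow gate, had nearly equal shares of called cells in both libraries. S-phase calls covered 63.8% of 2146 KO-labelled cells (95% interval 61.7 to 65.8) and 64.2% of 2618 WT-labelled cells (62.3 to 66.0). The ratio of these shares was 0.994 (0.952 to 1.04), and that of the mitotic shares, 47.5% and 48.3%, was 0.984 (0.928 to 1.04). Erythroid cells were also close, at 85.8% and 83.1% with the S-phase call and 78.7% and 79.7% with the mitotic call, most of them with both. In the small gate of stem and multipotent progenitors, with 50 and 81 cells, S-phase calls covered 26% and 29.6%, and mitotic calls 16.0% and 17.3%.

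**Figure D3:**
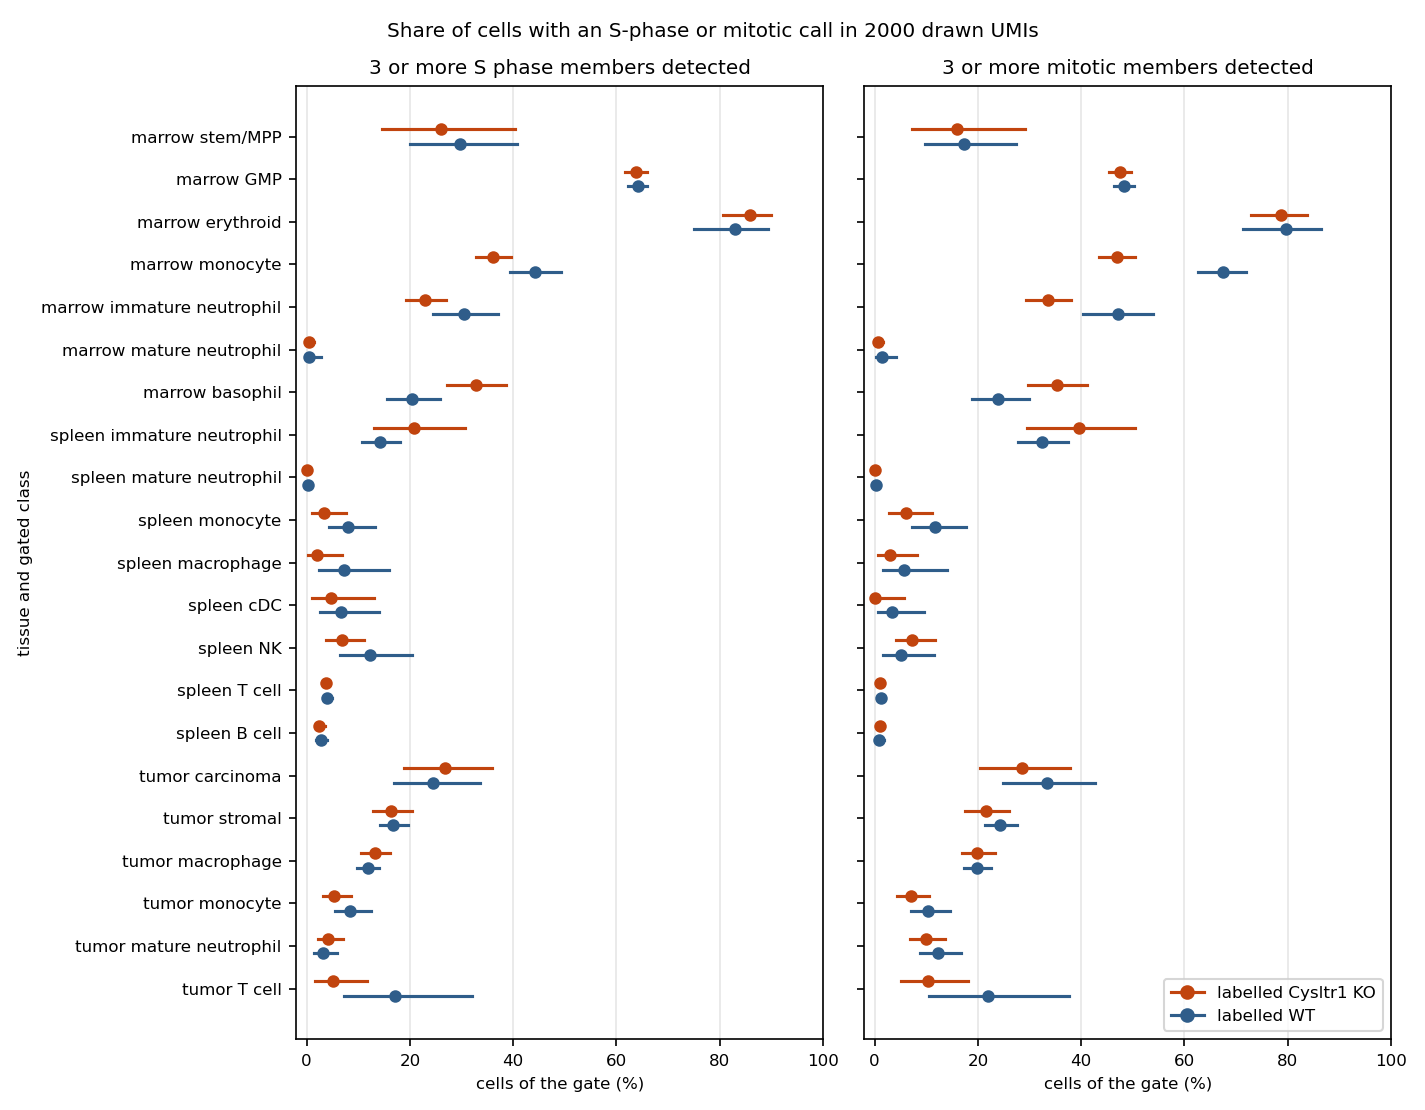
Percent of cells with at least 3 S-phase members (left) or 3 mitotic members (right) detected in a draw of 2000 UMIs, per gate, with KO-labelled points above WT-labelled ones and lines for 95% Clopper-Pearson intervals. In marrow the KO-labelled points are to the right in the basophil gate and to the left in the monocyte and immature neutrophil gates.

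Among the compared marrow gates, basophils alone had larger shares of both calls in the KO-labelled library. Marrow cells in no gate also had larger KO-labelled shares, 53.4% against 43.5% with the S-phase call and 37.7% against 31.7% with the mitotic call. S-phase calls covered 32.7% of 281 KO-labelled and 20.3% of 246 WT-labelled basophils, a ratio of 1.61 (1.19 to 2.17). Mitotic calls covered 35.2% and 24.0%, a ratio of 1.47 (1.12 to 1.93). Without the draw the S-phase shares were 49.8% and 50.8%, at median depths of 4163 and 6584 UMIs. On the log2 scale the S-phase ratio was 0.69 with the draw of 2000 UMIs, 0.018 with a draw of 1000 UMIs and 0.84 with a repeat of that smaller draw, so the value differed between draws of that size. The mitotic ratio, 0.55, was 0.46 and 0.56 in the same smaller draws. The summed S-phase level over all UMIs was 1.28 times as high in the KO-labelled basophils (1.21 to 1.36), and the mitotic level 1.26 times (1.21 to 1.32).

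Monocytes and immature neutrophils of marrow had smaller shares in the KO-labelled library. Of 820 KO-labelled and 420 WT-labelled monocytes, 47.0% and 67.4% had the mitotic call, a ratio of 0.697 (0.631 to 0.769), and 36.1% and 44.3% the S-phase call, a ratio of 0.815 (0.708 to 0.938). Of 474 KO-labelled and 223 WT-labelled immature neutrophils, 33.5% and 47.1% had the mitotic call, a ratio of 0.712 (0.590 to 0.860). Their S-phase shares were 23.0% and 30.5% (0.754, 0.583 to 0.976), and a repeat draw of 1000 UMIs put the S-phase ratio on the other side of 1, at 0.14 on the log2 scale. In spleen, immature neutrophils had 39.6% of 91 KO-labelled and 32.5% of 382 WT-labelled cells with the mitotic call, and the interval of the ratio, 0.910 to 1.63, included 1.

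Among T and B cells of spleen few cells were called and the libraries were close. S-phase calls covered 3.68% of 3341 KO-labelled and 4.0% of 2275 WT-labelled T cells (ratio 0.92, 0.706 to 1.2), and 2.49% of 1364 and 2.69% of 966 B cells (0.926, 0.560 to 1.53). Without the draw the T cell shares were 16.3% and 12.6%, at medians of 4084 and 3273 UMIs. Mitotic calls covered 0.988% and 1.23% of T cells and 0.953% and 0.932% of B cells, above the 0.128% and 0.332% of mature neutrophils in the same libraries. Natural killer cells of spleen had S-phase calls in 6.76% of 207 KO-labelled and 12.2% of 98 WT-labelled cells (0.552, 0.265 to 1.15) and mitotic calls in 7.25% and 5.10% (1.42, 0.531 to 3.80). In spleen monocytes the mitotic share was 6.04% and 11.7%, from 9 and 19 cells, with a ratio of 0.515 (0.241 to 1.10).

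In tumor the intervals of the share ratios were wide. Carcinoma cells had the S-phase call in 26.8% of 112 KO-labelled and 24.6% of 114 WT-labelled cells (1.09, 0.699 to 1.70), and the mitotic call in 28.6% and 33.3% (0.857, 0.580 to 1.27). Tumor monocytes had S-phase shares of 5.37% and 8.46% (0.635, 0.343 to 1.18) and mitotic shares of 7.05% and 10.3% (0.685, 0.398 to 1.18). These mitotic shares were below those of the tumor mature neutrophil gate, 9.87% and 12.4%. Macrophages, with 623 and 906 cells, had equal mitotic shares of 19.9%, with an interval of the ratio from 0.816 to 1.23. Of the few tumor T cells, 5 of 97 KO-labelled and 7 of 41 WT-labelled cells had the S-phase call (0.302, 0.102 to 0.896), and 10 and 9 the mitotic call (0.470, 0.206 to 1.07). Their mitotic shares were 10.3% and 22.0%, against 9.87% and 12.4% in the tumor mature neutrophil gate. Stromal cells had mitotic shares of 21.5% and 24.3%.

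Labels of the tumor gates held only in part. Only 3 of 10 carcinoma markers in the KO-labelled and 5 of 10 in the WT-labelled library were seen in at least 10% of the carcinoma gate. Ptprc, the gene of CD45, was at 3.49 and 2.32 CPM there and at 5.16 and 8.05 CPM in the stromal gate, although the sort was for CD45. Stromal markers summed to 892 and 905 CPM in the carcinoma gate, whose own markers summed to 2853 and 2837 CPM. Carcinoma markers summed to 826 and 747 CPM in the stromal gate, against 3207 and 3849 CPM of its own. In the tumor T cell gate stromal markers summed to 183 CPM KO-labelled and 531 CPM WT-labelled, and monocyte markers to 1416 and 1486 CPM. Markers of stem and multipotent progenitors went the other way there, with 1353 and 531 CPM, and its own markers summed to 4017 and 3759 CPM. Their part in the T cell calls was not tested. The tumor mature neutrophil gate had mitotic calls in 9.87% of KO-labelled and 12.4% of WT-labelled cells. In its called cells neutrophil markers summed to 19977 and 25887 CPM, against 52131 and 48233 CPM in its other cells, and stromal markers to 660 and 557 CPM, against 247 and 375 CPM. The part of mixed cells in these calls was not tested.

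Cells of the same gate differed in total UMIs between the libraries, and the calls went with them even after the draw to 2000. Of the KO-labelled marrow monocytes 15.1% had at least 10000 UMIs, against 71.0% of the WT-labelled ones. The mitotic share in cells with at least 2000, at least 5000 and at least 10000 UMIs, each range ending where the next begins, was 22.1%, 52.6% and 82.3% in KO-labelled monocytes, against 36.8%, 55.3% and 73.5% in WT-labelled ones, where the lowest range held 19 cells. In immature neutrophils these shares were 8.29%, 45.8% and 80.0% KO-labelled, against 29.4% of 17 cells, 16.7% and 68.0% WT-labelled. The mitotic share was thus higher in KO-labelled cells in the 2 upper ranges of immature neutrophils and in the uppermost range of monocytes, and lower in the other ranges.

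With the WT-labelled cells weighted to the KO-labelled mix of UMI ranges, an alternative added after the data were seen, several ratios moved to the other side of 1. For immature neutrophils the mitotic ratio became 1.19 and the S-phase ratio 1.99. Their lowest range held 43.2% of the KO-labelled cells but only 17 WT-labelled ones, and the weighted ratios have no interval. For monocytes the S-phase ratio became 1.17, and the mitotic ratio, at 0.904, stayed below 1. The lowest monocyte range held 33.2% of the KO-labelled cells and only 19 WT-labelled ones. Basophils kept their direction in every range, with S-phase shares of 19.4%, 53.8% and 80% in KO-labelled cells, the last of 10 cells, against 3.0%, 23.9% and 46.3% in WT-labelled cells, and a weighted ratio of 2.89. Among progenitors of granulocytes and monocytes the weighted ratios were 1.11 for the S-phase call and 1.15 for the mitotic call. The WT-labelled marrow library was also read more deeply, so the RNA content of a cell and the depth of its library cannot be told apart in these ranges.

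**Figure D4:**
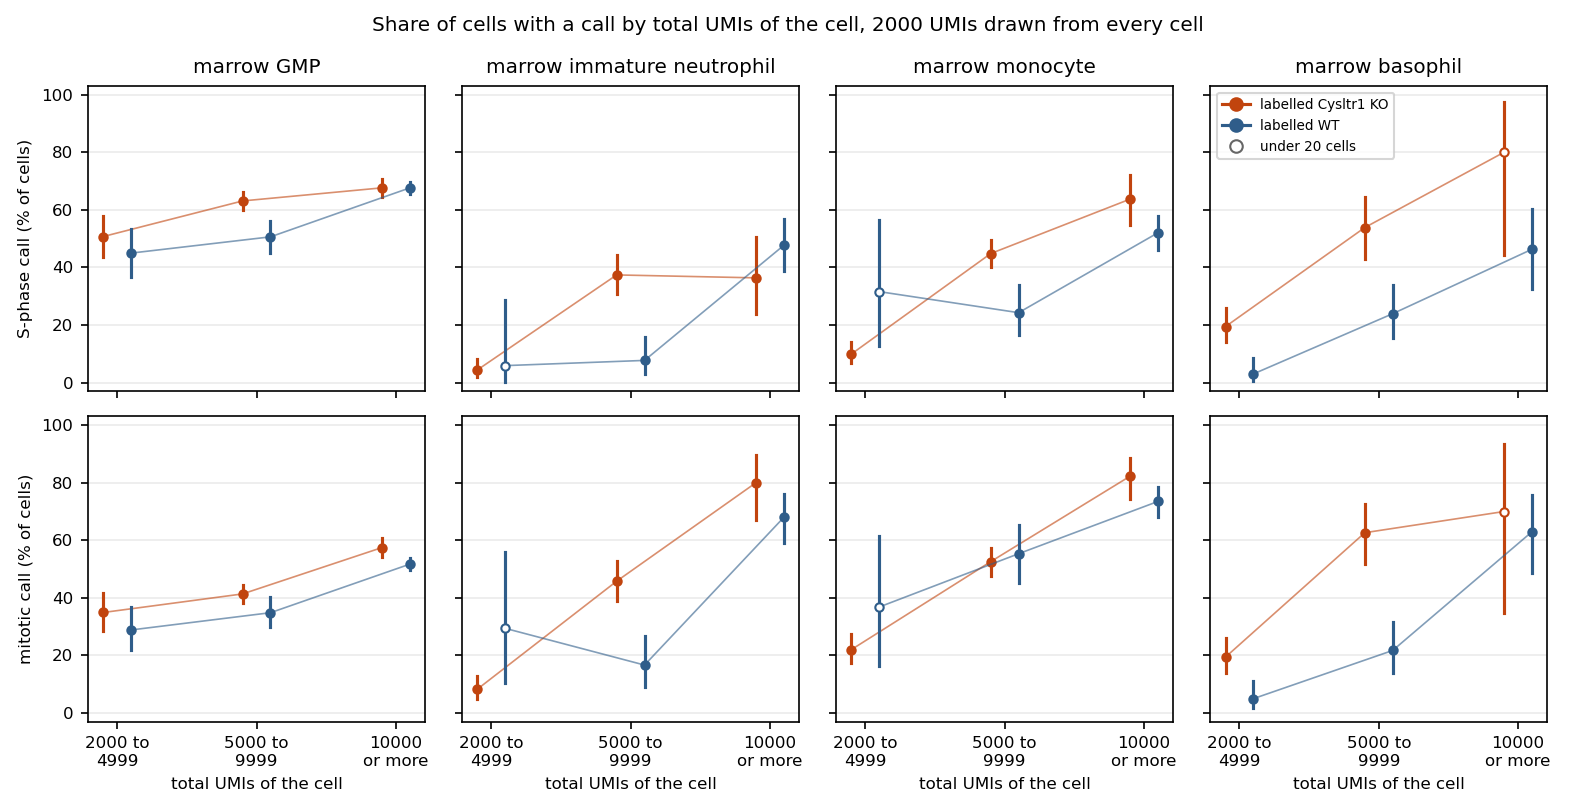
Percent of cells with the S-phase call (top) or the mitotic call (bottom) by the cell's total UMIs in 4 marrow gates, KO-labelled and WT-labelled, with open symbols where a range held under 20 cells. Shares mostly rise with total UMIs, except in S phase between the lower ranges of WT-labelled monocytes and the upper ranges of KO-labelled immature neutrophils, and in mitosis between the lower ranges of WT-labelled immature neutrophils, and KO-labelled basophils lie above WT-labelled ones in all 3 ranges.

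Maturity was read from markers outside the 38. Among marrow immature neutrophils, the mitotic share in cells with 0 to 2, 3, 4, 5 and 6 or more mature neutrophil markers was 63.2%, 55.8%, 38%, 1.47% and 1.59% in the KO-labelled library. The WT-labelled shares were 76.5%, 56.0%, 60.0%, 32.1% and 1.92%, so the share was near the background among the most mature marrow cells of both libraries. In spleen, immature neutrophils with 6 or more of these markers had mitotic calls in 3 of 17 KO-labelled cells, 17.6%, and 5 of 99 WT-labelled cells, 5.05%, above the spleen background. Monocytes with more progenitor markers had more mitotic calls in the KO-labelled library, 38.6%, 48.2% and 60.9% with 0 to 1, 2 and 3 or more markers, against 61.5%, 68.7% and 70.4% in the WT-labelled one. The WT-labelled cells were also weighted to the KO-labelled mix of these steps, again added after the data were seen. The mitotic ratio was then 0.768 for immature neutrophils of marrow and 1.07 for those of spleen. It was 0.713 for marrow monocytes and 1.46 for basophils. Progenitors with 2 or more stem cell markers had fewer mitotic calls than those with none, 29.5% against 48.8% in the KO-labelled and 28.5% against 50.5% in the WT-labelled library.

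Single members were then compared between the libraries of a gate. A member was counted where it had at least 30 UMIs over both libraries, and called apart by size where its CPM differed at least 1.5-fold on the log2 scale with 1 CPM added. The companion lists, 50 other replication genes, 52 other mitosis genes and 23 regulators of G1 and cycle inhibitors, were read the same way.

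In basophils 37 of 38 members had a ratio above 1, with a median log2 ratio of 0.31, against 0.03 over all compared genes. At least 1.5-fold higher were 5 of the 38, and none was lower, against 5.6% higher and 6.19% lower among all compared genes. Mcm4, of the helicase, had 117 CPM in KO-labelled and 59.3 CPM in WT-labelled basophils, a log2 ratio of 0.96. Rrm2 had 144.5 and 80.9 CPM (0.83), and Prc1, which bundles spindle microtubules, 98.9 and 61.5 CPM (0.68). Cdc6 (24.0 and 11.6 CPM) and Ccnb1 (44.8 and 28.3 CPM) also passed the fold, but their Poisson intervals overlapped. When every cell was counted at equal UMIs, 11 members passed the fold, and no share over all genes is given for that count. Tuba1b alone was not above 1, with 278 and 279 CPM. On mm10, Mcm4 lies at chr16:15623897-15637400 (minus strand), Rrm2 at chr12:24708241-24714146 (plus strand) and Prc1 at chr7:80294450-80316259 (plus strand).

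Companion genes in basophils included 17 of 45 replication genes at least 1.5-fold higher in the KO-labelled library, with a median of 0.49, and none lower. Among all compared genes of this gate 5.6% were higher and 6.19% lower. The largest with separate intervals were E2f1, itself an E2F factor, with 27.8 and 12.2 CPM (1.13), Uhrf1, which maintains DNA methylation after replication, with 53.3 and 28.3 CPM (0.89), and Clspn, a checkpoint adaptor, with 61.0 and 32.7 CPM (0.88). Of 51 mitosis genes 6 were higher, among them Hmmr at 74.2 and 38.3 CPM. Ccnd3, a G1 cyclin, had 297 and 174 CPM (0.77), and the inhibitors Cdkn1a (124 and 77.6 CPM, 0.66) and Cdkn2d (124 and 80.9 CPM, 0.60) were higher too. Markers of granulocyte-monocyte progenitors summed to 6194 CPM in KO-labelled and 5971 CPM in WT-labelled basophils, and monocyte markers to 2572 and 2903 CPM. Macrophage markers summed to 273 and 491 CPM, plasma cell markers to 135 and 366 CPM, eosinophil markers to 31.7 and 71.0 CPM, and natural killer cell markers to 0.773 and 29.9 CPM. Their part in the result was not tested.

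**Figure D5:**
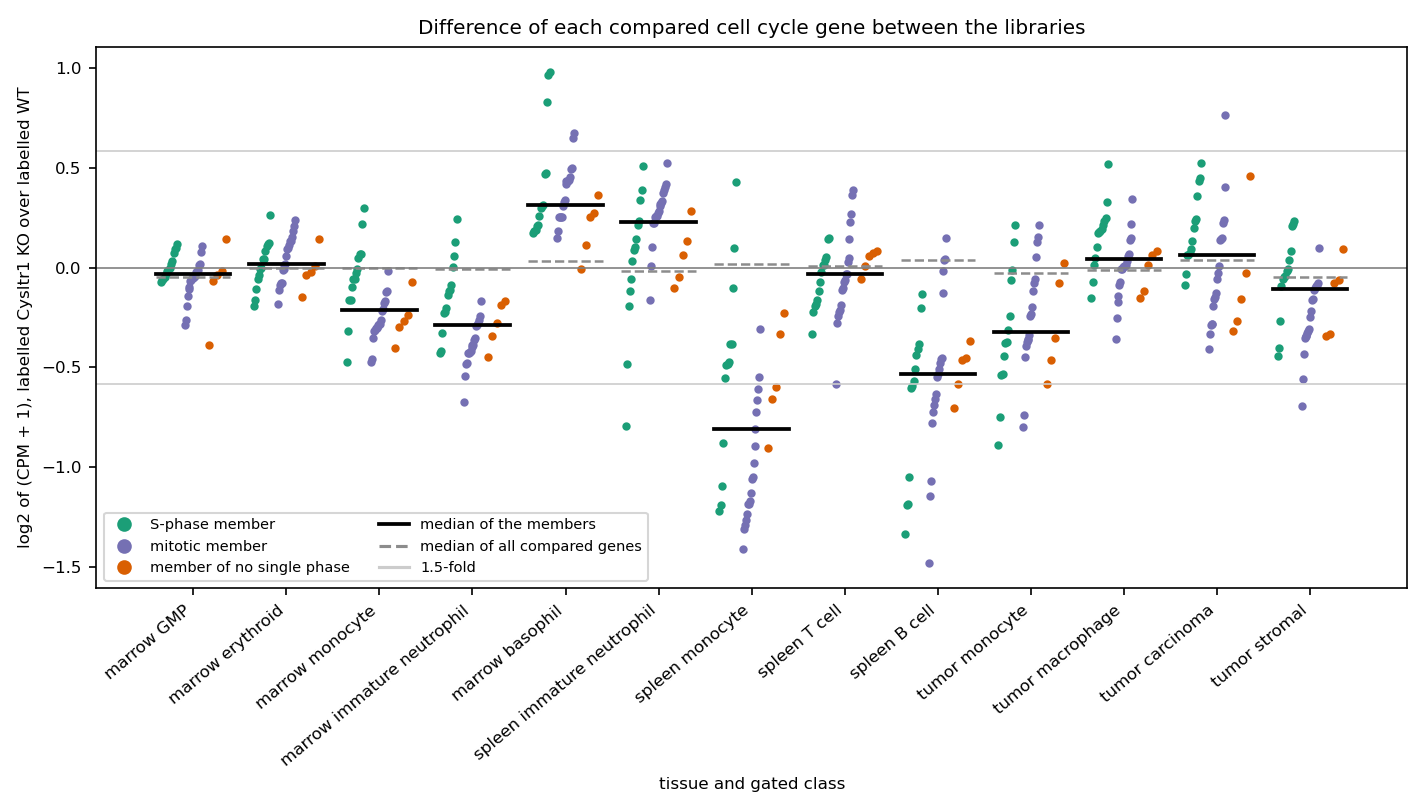
Log2 ratio of each compared member between the KO-labelled and the WT-labelled library (CPM plus 1) in 13 gates, 1 point per gene, coloured by list. Black lines are the medians of the members, grey dashed lines the medians of all compared genes, and thin grey lines 1.5-fold. Most members lie above 0 in basophils, around 0 in progenitors (GMP) and T cells, and below 0 in spleen monocytes and B cells.

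Granulocyte-monocyte progenitors had 0 of 38 members past the fold, against 1.07% of genes higher and 1.01% lower, and 0 of the compared companions. The lowest ratio was that of Tuba1b, with 324 CPM in KO-labelled and 423 CPM in WT-labelled cells (-0.39), and the highest that of H2afz, with 3738 and 3380 CPM (0.15). Between them lay Dut with 393 and 409 CPM, Rrm2 with 323 and 328 CPM, Ube2c with 378 and 358 CPM, and Mki67 with 181 and 193 CPM. Erythroid cells likewise had 0 of 38 past the fold (2.92% higher and 3.13% lower among all genes). Their companions Ccne2, a cyclin of S-phase entry, with 28.6 and 44.9 CPM (-0.63), and Ccnd2, with 16.3 and 27.2 CPM (-0.70), were lower.

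In marrow immature neutrophils all 19 mitotic members had ratios below 1, with a median of -0.39, and over the 38 members 34 did. Past the fold was 1 member, Prc1, with 67.2 CPM in KO-labelled and 108 CPM in WT-labelled cells (-0.67), against 3.74% of all genes lower and 4.41% higher. When every cell was counted at equal UMIs 12 members passed the fold, and no share over all genes is given for that count. Ube2c, the ubiquitin-conjugating enzyme of mitotic exit, had 415 and 578 CPM, a ratio of 0.718 (0.666 to 0.775). Of 52 other mitosis genes 5 were lower, among them Spc25 (40.1 and 63.3 CPM) and Nuf2 (23.7 and 37.3 CPM), both of the outer kinetochore, and Kif23 (37.4 and 58.6 CPM), a motor of cytokinesis. Mature neutrophil markers summed to 278088 CPM in KO-labelled and 273625 CPM in WT-labelled immature neutrophils. Progenitor markers summed to 7272 and 6524 CPM and erythroid markers to 63.5 and 5.05 CPM, and their part in the result was not tested.

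Marrow monocytes had the same side for all 19 mitotic members, with a median of -0.28, and none of the 38 was past the fold (3.28% of genes higher, 2.65% lower). S-phase members were closer to 0 in sum, with a median of -0.04. Within that list Rrm2 had 212 CPM in KO-labelled and 295 CPM in WT-labelled monocytes, a ratio of 0.719 (0.668 to 0.774), whereas Pcna had 221 and 223 CPM. Markers of other cells were not equal in this gate: mature neutrophil markers summed to 2321 CPM in KO-labelled and 6022 CPM in WT-labelled monocytes, and progenitor markers to 2973 and 4103 CPM. Their part in the result was not tested.

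The 50 and 81 stem and multipotent progenitor cells gave 33 comparable members, 1 higher and 7 lower, against 8.15% and 10.4% of genes. Prc1 had 20.9 CPM in KO-labelled cells, from 5 UMIs, against 85.8 CPM in WT-labelled cells, and Tuba1b 276 against 473 CPM. In mature neutrophils of marrow 7 of 15 comparable members were lower (4.53% of genes higher, 14.9% lower), at levels as low as 9.15 and 27.1 CPM for Dut. Of 10 other mitosis genes compared, 3 were lower and 2 higher, the latter Hjurp (85.6 and 52.2 CPM) and Cks2 (112 and 71.6 CPM). The median log2 ratio of all compared genes was -0.10 in this gate. Progenitor markers summed to 747 and 1285 CPM and plasma cell markers to 27.4 and 2041 CPM there, and their part was not tested.

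In spleen, monocytes had the most members past the fold in 1 direction. Of 37 compared, 24 were lower in the KO-labelled library, 17 of them mitotic, and none was higher, against 6.41% of genes lower and 7.04% higher. Cdc20, the activator of the anaphase-promoting complex, had 21.2 CPM in KO-labelled and 57.8 CPM in WT-labelled monocytes (-1.41). Ube2c had 84.0 and 209 CPM (-1.31), Ccnb1 18.6 and 46.9 CPM (-1.29), Prc1 16.7 and 41.4 CPM (-1.26), Ccna2 26.3 and 63.3 CPM (-1.24), and Rrm2 32.1 and 76.1 CPM (-1.22). These levels come from 149 and 162 cells, of which 9 and 19 had a mitotic call. In the same gate immature neutrophil markers summed to 109 CPM in the KO-labelled and 1500.4 CPM in the WT-labelled library, and progenitor markers to 56.4 and 517 CPM. Their part in the result was not tested.

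B cells of spleen had lower levels over all UMIs in the KO-labelled library although the shares of called cells were close. Of 37 members 15 were at least 1.5-fold lower and none higher, against 3.05% of genes lower and 4.23% higher, and the median was -0.53, against 0.04 over all genes. Cdk1 had 4.61 CPM in KO-labelled and 14.7 CPM in WT-labelled B cells (-1.48), from 27 and 54 UMIs. Tk1, thymidine kinase, had 8.03 and 21.7 CPM (-1.33), Rrm2 15.5 and 36.7 CPM (-1.19), Tyms, which makes thymidylate, 7.69 and 18.7 CPM (-1.18), and Birc5 13 and 29.9 CPM (-1.14). Pcna, more widely detected, had 84.2 and 92.3 CPM. Companions Kif15 (4.44 and 13.9 CPM), Spc24 (7.0 and 19.8 CPM) and Ccne1 (4.10 and 9.78 CPM) were lower too, and Rbl1 was higher (19.5 and 11.7 CPM). Few B cells had a call, 34 KO-labelled and 26 WT-labelled cells in S phase, and 13 and 9 mitotic. In the draw, the mean number of S-phase members detected per cell was 0.631 KO-labelled and 0.644 WT-labelled. That of mitotic members was 0.257 and 0.252. The part of the few called cells in the lower levels was not tested. Immature neutrophil markers summed to 44.6 CPM in KO-labelled and 177 CPM in WT-labelled B cells, and progenitor markers to 2.4 and 30.1 CPM; their part was not tested.

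Spleen T cells, the largest gate of all, had 0 of 38 members past the fold (1.88% of genes higher, 2.4% lower) and a median of -0.03. Mki67 had 48.8 CPM in KO-labelled and 50 CPM in WT-labelled T cells, Rrm2 24.9 and 24.6 CPM, and Pcna 107 and 109 CPM. Cenpa, the centromeric histone, had 67.0 and 51.9 CPM, a ratio of 1.29 (1.15 to 1.45), and Mcm4 71.1 and 83.1 CPM, a ratio of 0.855 (0.777 to 0.942). Companions with separate intervals included E2f7, an E2F factor that represses, with 1.95 and 0.477 CPM (1.0) from 30 and 4 UMIs, Cdkn1a, a cycle inhibitor, with 5.4 and 2.39 CPM (0.92), and Clspn with 6.70 and 10.7 CPM (-0.61). Spleen immature neutrophils had 30 of 38 ratios above 1 and a median of 0.23. Only Gins2 passed the fold there, with 5.8 and 10.8 CPM and overlapping intervals, against 5.69% of genes lower and 4.38% higher. In the 782 and 1508 mature neutrophils of spleen 21 of 30 comparable members were lower (12.3% of genes lower, 10.3% higher), with Ube2c at 1.55 and 16.5 CPM, and immature neutrophil markers summed to 9814 and 18284 CPM. Other mitosis genes went both ways there. Of 18 compared, 8 were lower, among them Cks1b (0.773 and 9.90 CPM), and 4 higher, among them Cks2 (311 and 145 CPM) and Kif23 (81.6 and 46.4 CPM). The small gates of natural killer cells (207 and 98 cells), macrophages (104 and 70) and conventional dendritic cells (64 and 89) had 31, 19 and 18 comparable members. Of these 5, 8 and 8 were lower and 1, 5 and 1 higher, against 5.61%, 9.57% and 5.51% of genes lower and 11.5%, 9.2% and 13.7% higher. In the macrophage gate erythroid markers summed to 2705 CPM KO-labelled and 271 CPM WT-labelled, and in the natural killer gate immature neutrophil markers to 37.7 and 160 CPM. Their part was not tested.

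With doublets kept 13 members passed the fold in tumor monocytes, a count given without a share over all genes. In the main setting 5 of 36 members were lower and none higher, against 8.68% of genes lower and 5.73% higher. Intervals were separate for Top2a, with 70.3 CPM in KO-labelled and 118 CPM in WT-labelled cells (-0.74), and for Stmn1, with 83.6 and 126 CPM (-0.59). Among companions Dtl, which clears licensing factors in S phase, had 4.81 and 17.2 CPM (-1.64), Racgap1, of cytokinesis, 15.6 and 35 CPM (-1.12), and Ccnd2 69.7 and 36.5 CPM (0.92). Mature neutrophil markers summed to 13657 CPM in KO-labelled and 14359 CPM in WT-labelled tumor monocytes, above the gate's own monocyte markers, 4297 and 4807 CPM. Macrophage markers summed to 2096 and 3824 CPM there. The part of other cells in the result was not tested. In macrophages 0 of 38 members passed the fold (2.91% of genes higher, 4.68% lower), with Mki67 at 132 and 158 CPM and Pcna at 114 and 120 CPM.

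Carcinoma cells had 1 of 38 members past the fold, Bub1b, with 23.7 CPM in KO-labelled and 13.6 CPM in WT-labelled cells and overlapping intervals, against 7.38% of genes higher and 3.12% lower. The count was 5 at equal UMIs, 6 with 1 more marker for the gate, where the median log2 ratio was 0.51 against 0.06, and 0 with doublets kept. No share over all genes is given for these other settings. Dut had 337 and 323 CPM, Pcna 112 and 119 CPM, and Ube2c 303 and 346 CPM. The inhibitors of the G1 kinases Cdkn2c (62.1 and 34.1 CPM, 0.85) and Cdkn2a (32.1 and 17.8 CPM, 0.82) were higher. Stromal cells had 1 of 38 lower, Nusap1, with 14.3 and 23.8 CPM (-0.69), against 4.64% of genes lower and 2.67% higher. In the tumor mature neutrophil gate 5 of 36 members were lower and 1 higher (8.85% and 5.37% of genes). The largest of these were Plk1 with 5.35 and 18.1 CPM (-1.59) and Ube2c with 69.6 and 181 CPM (-1.36), in the gate whose called cells were low in neutrophil markers.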

How the data were processed

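The authors deposited whole-number UMI counts for each gene in each barcode of 6 libraries made on the 10x Chromium platform, per the labels' protocols, which name both a 5' and a 3' kit. The submitters' processing notes give Cell Ranger 6.0.0 and the build mm10, while the matrices were written by version 6.1.0 per the file headers. In libraries that list them, 19 antibody features held 0 to 3 counts each and were left out. A barcode entered as a cell with 300 or more genes, 500 or more UMIs and mitochondrial UMIs of 10% or less. Doublets were scored against simulated doublets in each library, and the highest scores were removed at 0.8% per 1000 barcodes, which took out 340 KO-labelled and 246 WT-labelled barcodes in marrow. Spleen lost 555 and 655, tumor 349 and 670. Kept cells numbered 6054 and 5011, 7702 and 8307, and 5992 and 7929.

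Gates needed at least 3 markers in a draw of 2000 UMIs, and calls at least 3 members of a phase. UMIs were summed per gate and library, scaled to CPM and set as log2 ratios with 1 CPM added, for genes with at least 30 UMIs and gates of at least 50 cells in both libraries, 20 in all. Shares have 95% Clopper-Pearson intervals, levels exact Poisson intervals, ratios of levels exact conditional intervals, and ratios of shares Katz intervals. For a difference, the members named were the up to 6 largest past 1.5-fold with separate intervals, and up to 3 companions per list. For levels, the 3 highest and 3 lowest of a phase were named, and other members stand as examples chosen after their values were seen. The 38 members, the lists and the rules were chosen with earlier results of these data known. The calculation was tested on simulated data. Python 3.11.15, numpy 2.4.6, pandas 2.3.3, scipy 1.17.1, scikit-learn 1.9.0 and matplotlib 3.10.9 were used. Alternatives were draws of 1000 or 4000 UMIs or none, 2 or 4 members for a call, other gates and filters, and other scalings. Added after seeing the data were the weightings by maturity and by total UMIs and repeat draws.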

Additional observations from a re-analysis of the deposited data

Results flagged for a closer look

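The mitotic share of immature neutrophils differed in direction between tissues. In marrow the ratio of the KO-labelled to the WT-labelled share was 0.712, and in spleen it was 1.22. The difference between the tissues was not tested, since each tissue and genotype had 1 library, and the interval of the spleen ratio included 1. Median UMIs in these cells were 5661 KO-labelled and 11201 WT-labelled in marrow, and 17831 and 12471 in spleen, so the library with the larger share was also the one with more UMIs per cell in both tissues. With WT-labelled cells weighted to the KO-labelled mix of total UMIs, added after the data were seen, the ratios were 1.19 in marrow and 1.12 in spleen, on the same side of 1. Weighted to the KO-labelled mix of mature neutrophil markers instead, the ratios were 0.768 in marrow and 1.07 in spleen. None of these weighted ratios has an interval. In the weighting by total UMIs, 17 WT-labelled marrow cells stood for 43.2% of the KO-labelled mix.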

How the results depend on the processing

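Values here are log2 ratios of KO-labelled to WT-labelled shares unless said otherwise. A draw of 4000 UMIs gave -0.13 for the mitotic share of marrow immature neutrophils and -0.35 for that of monocytes, and a draw of 1000 gave 0.018 for the S-phase share of basophils. With no draw, S-phase values were -0.028 in basophils (the opposite direction), -0.52 in marrow monocytes and 0.37 in spleen T cells. Weighting WT-labelled cells to the KO-labelled mix of total UMIs gave 0.16 (S phase) and 0.20 (mitotic) in progenitors of granulocytes and monocytes, 0.99 and 0.25 in immature neutrophils (both in the opposite direction), 0.22 (opposite) and -0.15 in monocytes, and 1.53 and 1.5 in basophils. A repeat draw of 1000 UMIs gave 0.14 for S phase in immature neutrophils (opposite), and -0.37, -1.45 and 0.90 for mitotic monocytes, mitotic tumor monocytes and S-phase carcinoma cells. A repeat draw of 2000 moved none of these shares by more than its interval.

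Members past 1.5-fold numbered 12 in immature neutrophils, 11 in basophils, 2 in marrow monocytes and 5 in carcinoma cells when every cell counted with equal UMIs. Keeping doublets gave 3 in immature neutrophils, 13 in tumor monocytes and 0 in carcinoma cells. Spleen T cells had 1 under median scaling, under a pseudocount of 0.1 and with doublets kept, and carcinoma cells 2 under that pseudocount and 6 with 1 more marker for the gate. No share over all genes stands beside these counts, so they cannot be read as a result about the members. Median log2 ratios of members with equal UMIs were -0.46 in immature neutrophils, 0.46 in basophils, -0.35 in marrow monocytes and -0.22 in tumor monocytes, and 1 more marker gave 0.51 in carcinoma cells. Causes were not tested. Of the alternatives run, 80 of 90 S-phase shares, 83 of 91 mitotic shares, 37 of 49 counts and 44 of 49 medians stayed near the main value. Scaling by the median gene, run in 7 gates, moved levels by at most 0.06 (log2). No paired analysis was possible because each tissue and genotype had 1 library, and no replicate could be left out.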

Other observations

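Many cells stood in no gate, and part of them had a call. In tumor, 1357 KO-labelled and 2309 WT-labelled cells, 42.1% and 48.8% of those with 2000 UMIs, matched no marker list well enough. Of these, 21.1% and 24.8% had the S-phase call and 28.0% and 30.1% the mitotic call. Ptprc was at 19.3 and 12.3 CPM in them. In marrow, 53.4% of 459 KO-labelled and 43.5% of 527 WT-labelled cells outside the gates had the S-phase call, and 37.7% and 31.7% the mitotic call. The cells that expressed these members outside the gates were not assigned to a type.

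Megakaryocyte and plasmacytoid dendritic gates of marrow were too small for a comparison. S-phase calls covered 57.1% of 42 KO-labelled and 57.6% of 33 WT-labelled megakaryocytes, and mitotic calls 33.3% and 45.5%. Among 99 KO-labelled and 25 WT-labelled plasmacytoid dendritic cells, 16.2% and 20% had the S-phase call, and 20.2% and 36% the mitotic call.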
